A study of Mus musculus with 6 samples.

Results

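Collagens, laminins, integrins and fibronectin are the structural proteins of the extracellular matrix and the receptors that hold cells to it. Every row of the expression table whose gene symbol has the form of a collagen chain, a laminin alpha, beta or gamma chain, an integrin alpha chain, an integrin beta chain from Itgb1 to Itgb8, or Fn1 was taken. This gave 82 of 24028 genes, namely 44 collagen chains, 11 laminin chains, 26 integrin chains and fibronectin. RNA-seq was done on mouse germinal vesicle oocytes, which are fully grown and have not resumed meiosis, in 3 dKO and 3 control libraries. The dKO oocytes were Ring1 -/-; Rnf2 f/f; Zp3-cre, and the controls were Ring1 -/-; Rnf2 f/f without the transgene. Both groups therefore lack Ring1, and the comparison asks what changes when Rnf2, the other ubiquitin ligase at the core of Polycomb repressive complex 1, is also deleted. The Zp3 promoter drives the recombinase in growing oocytes, so loss of Rnf2 and presence of the transgene cannot be told apart. All females had a mixed FVB, 129/Sv and C57BL/6J background and were about 3 months old, and each library pooled 15 oocytes of a single female. In such pools, a change in every oocyte and a larger change in some of them cannot be told apart.

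A laminin is a trimer of an alpha, a beta and a gamma chain and, with the collagen IV network, builds the basement membrane that surrounds the ovarian follicle. Fibronectin is secreted as a dimer and is assembled into fibrils at the cell surface. An integrin is a pair of an alpha and a beta chain, and the alpha chain largely sets whether it holds laminin, collagen or proteins with the Arg-Gly-Asp (RGD) motif such as fibronectin. Integrins are also present on the plasma membrane of the mouse egg, beside tetraspanins such as CD9 that act in sperm fusion.

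The values are FPKM, in which fragments are scaled to transcript length and library size. Levels can be set beside each other between genes only roughly, since the RNA was amplified. Over all genes FPKM summed to 278701, 309549 and 278838 in dKO oocytes and to 318273, 318471 and 327480 in control oocytes. Sums of a list therefore stand beside a lower total in dKO oocytes. Absolute depth is not kept in FPKM. Relative depth, read from the commonest ratio of low values, was 0.661, 0.805 and 1.08 in dKO replicates 1 to 3 and 0.903 and 1.02 in control replicates 2 and 3, each relative to control replicate 1. Rnf2 stood at 14.8, 8.44 and 5.31 FPKM in dKO oocytes and at 53.7, 46.8 and 48.2 FPKM in control oocytes, and fell by 2.37 ± 0.30 on the log2 scale (SE; limma adjusted p = 0.000696). Pearson correlations between libraries were 0.928 to 0.948 within the dKO group, 0.982 to 0.983 within controls and 0.866 to 0.917 between groups, so the dKO libraries varied more. The oocyte markers Gdf9 and Zp3 averaged 1760 and 918 FPKM in dKO oocytes and 2440 and 1440 FPKM in control oocytes.

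Most of the 82 genes were silent or nearly so in fully grown oocytes. Only 28 had at least 1 FPKM in at least 3 libraries and were tested, 6 more reached 1 FPKM in 1 or 2 libraries, and 48 stayed below it in all libraries. One of those, Col8a1, was listed at 0 in every library. The number at 1 FPKM or more was 31, 28 and 29 in the dKO libraries and 24 in each control library. Over all genes this number was also higher in dKO oocytes, at 11552, 11717 and 11188 against 10524, 10381 and 10251 in control oocytes. The summed level of the 82 genes was 390, 470 and 435 FPKM in dKO oocytes and 425, 441 and 419 FPKM in control oocytes. The sums of the groups overlapped.

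Of the 28 tested genes 6 rose and 5 fell in dKO oocytes at a limma adjusted p under 0.05, with p-values adjusted over all 11334 genes tested. Itga5, Fn1, Itga3, Lamc1, Itgb6 and Col4a1 rose, and Col6a6, Itgb3, Lama5, Lama2 and Col6a5 fell. Among all tested genes 14.0% rose and 7.04% fell, 21.0% in either direction, and among the 28 the shares were 21.4%, 17.9% and 39.3%. The background depended on level: 23.9% rose and 3.74% fell at a mean of 1 to 3 FPKM, 16.7% and 5.28% at 3 to 10, 7.37% and 9.14% at 10 to 30, and 3.51% and 11.0% at 30 and over. The median log2 change was 0.08 over the 28 and -0.019 over all tested genes. Of the 6 that rose, 3 (Itga5, Itga3 and Itgb6) were below 1 FPKM in every control library and Fn1 in all but 1, so 4 of the 6 passed the filter only with their dKO libraries and the count of rises is not support for a change of the group. Here 1 FPKM was added before taking log2, and a low gene's fold is therefore understated.

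**Figure D1:**
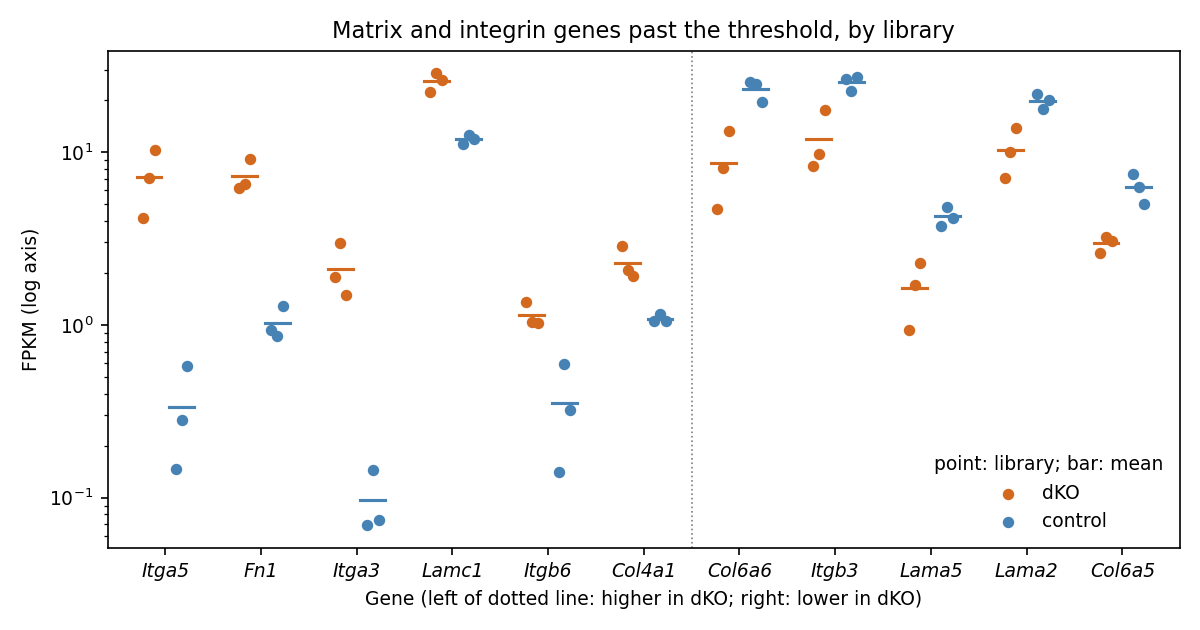
FPKM on a log axis of the 11 genes past the threshold, with dKO libraries left of control libraries for each gene; points are libraries and bars are group means (n = 3 each). For none of the 11 genes do the groups overlap, which is no added support, since a test on the same values chose these genes. Itga5 spans 4.16 to 10.3 FPKM in dKO oocytes and 0.147 to 0.576 FPKM in control oocytes.

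Fibronectin and an integrin chain that binds it were among the largest rises. Fn1 stood at 6.22, 6.55 and 9.16 FPKM in dKO oocytes and at 0.930, 0.867 and 1.28 FPKM in control oocytes. All dKO libraries were high and the groups did not overlap. The dKO mean was 7.13 times the control mean, and log2(FPKM + 1) rose by 2.02 ± 0.22 (SE; limma adjusted p = 0.000297). In the reference annotation its exons overlap Apol7d on the other strand. Itga5 encodes the alpha chain that pairs with the beta 1 chain to form the classical fibronectin receptor. It stood at 4.16, 7.08 and 10.3 FPKM in dKO oocytes and at 0.147, 0.282 and 0.576 FPKM in control oocytes. Every control was under 1 FPKM, and the lowest dKO library was far above the highest control. The dKO mean was 21.4 times the control mean, and log2(FPKM + 1) rose by 2.56 ± 0.29 (SE; limma adjusted p = 0.000445). The calls of Fn1 and Itga5 were kept under all alternatives that tested them, with limma adjusted p up to 0.00452 over 15 and up to 0.00813 over 14.

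The other RGD-binding alpha chains did not pass the threshold or were below the filter. Itgav, whose product pairs with several beta chains, had 3.22, 2.57 and 1.69 FPKM in dKO oocytes and 1.43, 1.86 and 1.34 FPKM in control oocytes, with overlapping groups (log2 change 0.44, 95% interval -0.06 to 0.94; limma adjusted p = 0.189). Itga8, which binds nephronectin, averaged 2.14 ± 0.187 FPKM in dKO oocytes and 2.55 ± 0.483 FPKM in control oocytes (SD, n = 3 each). Itga2b, the platelet chain, reached at most 0.138 FPKM in dKO oocytes and 0.0497 FPKM in control oocytes.

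Among laminin-binding integrins, a scarce chain rose and the abundant one did not pass the threshold. Itga3, a receptor chain for laminins of the epithelial basement membrane, stood at 1.89, 2.99 and 1.48 FPKM in dKO oocytes and at 0.0692, 0.145 and 0.0746 FPKM in control oocytes. It was near 0 in each control, and it rose by 1.48 ± 0.20 in log2 (SE; limma adjusted p = 0.00113). Itga6, the most abundant integrin chain in these oocytes, had 65.4, 67.4 and 39.3 FPKM in dKO oocytes and 57.1, 58.0 and 58.7 FPKM in control oocytes. The controls were close to each other, while dKO replicate 3 was below them and the other dKO libraries above them. The log2 change of Itga6 was -0.05 (95% interval -0.54 to 0.43; limma adjusted p = 0.877). Itga7, a muscle laminin receptor chain, did not exceed 0.0337 FPKM in any library.

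Itga9, which encodes a chain for tenascin and related ligands, was the next most abundant. It had 42.3, 61.5 and 38.9 FPKM in dKO oocytes and 46.9, 46.0 and 51.7 FPKM in control oocytes. The dKO libraries lay on both sides of the controls (log2 change -0.05, 95% interval -0.48 to 0.39; limma adjusted p = 0.887). Itga6 and Itga9 together carried most of the integrin FPKM, with 37.2% and 30.8% in dKO oocytes and 36.9% and 30.7% in control oocytes. Of the collagen-binding chains, Itga10 alone was tested, at 2.29 ± 0.761 FPKM in dKO oocytes and 1.58 ± 0.174 FPKM in control oocytes (SD, n = 3 each; limma adjusted p = 0.302). Itga1, Itga2 and Itga11 stayed under 0.1 FPKM in all libraries. The 5 leukocyte chains Itgad, Itgae, Itgal, Itgam and Itgax stayed below 1 FPKM, with sums of 0.584, 0.753 and 0.340 FPKM in dKO oocytes and 0.888, 0.676 and 0.823 FPKM in control oocytes.

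The beta chains moved in different directions. Itgb3, which pairs with the alpha V chain in the vitronectin receptor, stood at 8.33, 9.80 and 17.5 FPKM in dKO oocytes and at 26.6, 22.5 and 27.1 FPKM in control oocytes. All dKO libraries were below all controls, with dKO replicate 3 closest to them, with a change of -1.10 ± 0.26 in log2 (SE; limma adjusted p = 0.0161). Itgb1, the common partner of many alpha chains, had 19.4, 14.7 and 12.1 FPKM in dKO oocytes and 13.3, 15.8 and 12.6 FPKM in control oocytes. Its groups overlapped (log2 change 0.12, 95% interval -0.35 to 0.59; limma adjusted p = 0.715). Itgb6, an epithelial partner of the alpha V chain, stood at 1.35, 1.04 and 1.02 FPKM in dKO oocytes and at 0.140, 0.592 and 0.323 FPKM in control oocytes (log2 change 0.67; limma adjusted p = 0.0299). Its level was low in both groups, and the call ended after quantile normalization (limma adjusted p = 0.852, over 14 alternatives from 0.0275 to 0.852), with array weights and on removal of dKO replicate 1 or of control replicate 1 or 3. The call of Itgb3 ended without control replicate 1 or 3 and with no filter (limma adjusted p 0.00113 to 0.0699 over 15 alternatives). Itgb5, another alpha V partner, averaged 2.45 ± 0.610 FPKM in dKO oocytes and 2.04 ± 0.580 FPKM in control oocytes (SD, n = 3 each).

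**Figure D2:**
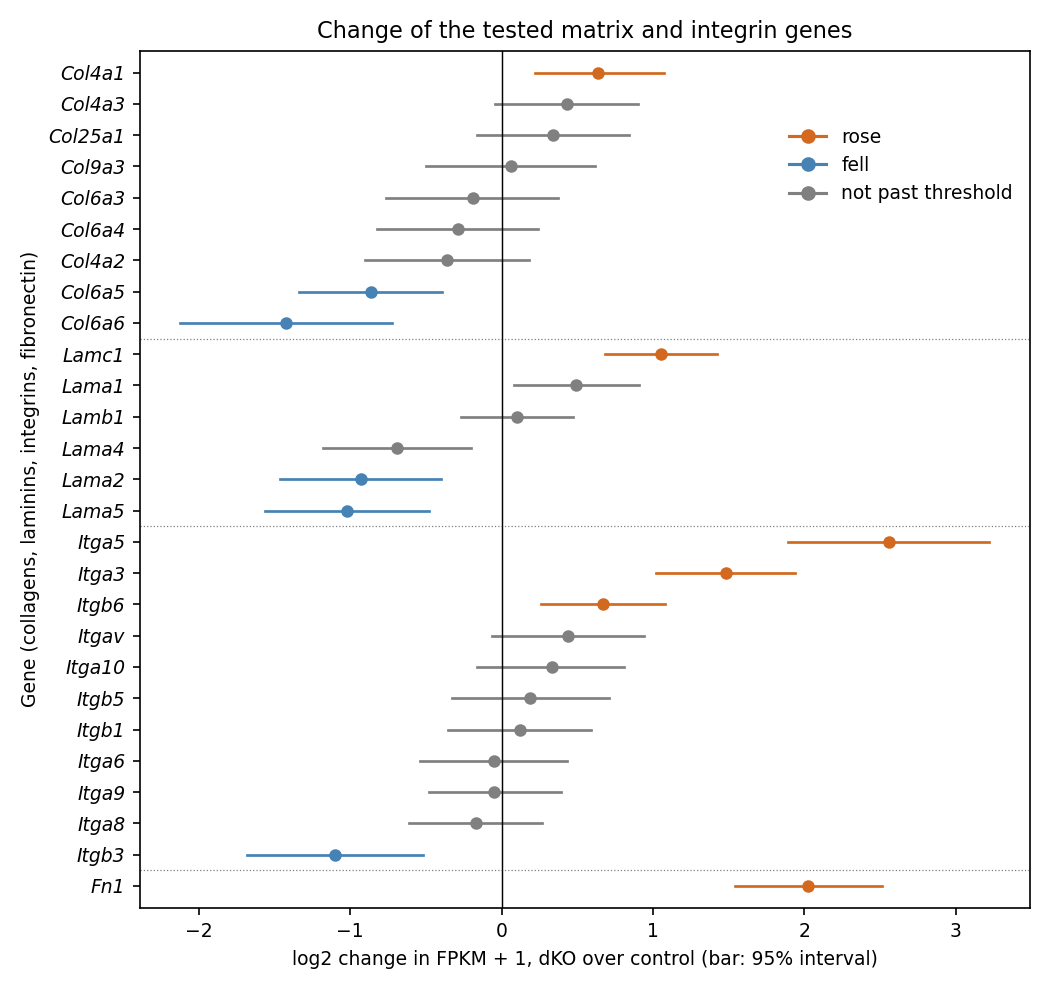
Log2 change in FPKM + 1, dKO over control, of 27 of the 28 tested genes with its 95% interval from limma; dotted lines part collagens, laminins, integrins and fibronectin. Intervals of the abundant chains Lamb1, Itga6 and Itga9 span 0, while Itga5 and Fn1 lie farthest to the right at 2.56 and 2.02.

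Laminin gamma 1 rose while 2 alpha chains fell. Lamc1, the gamma chain of most laminins, stood at 22.4, 28.6 and 26.0 FPKM in dKO oocytes and at 11.2, 12.5 and 11.9 FPKM in control oocytes. The groups were well apart, and the dKO mean was 2.16 times the control mean, a difference of 1.05 ± 0.16 in log2 (SE; limma adjusted p = 0.00223, and up to 0.0178 over 15 alternatives). Lama2, the alpha chain of muscle and nerve laminins, stood at 7.04, 9.97 and 13.8 FPKM in dKO oocytes and at 21.7, 17.8 and 20 FPKM in control oocytes. It fell to 51.7% of the control mean (log2 change -0.93 ± 0.23, SE; limma adjusted p = 0.0230). Lama5, the widespread alpha chain of adult basement membranes, stood at 0.935, 1.71 and 2.27 FPKM in dKO oocytes and at 3.76, 4.80 and 4.17 FPKM in control oocytes. It fell to 38.6% of the control mean (log2 change -1.02 ± 0.24, SE; limma adjusted p = 0.0163). The calls of Lama2 and Lama5 were close to the threshold. That of Lama2 ended on removal of any 1 control and with no filter (limma adjusted p 0.00560 to 0.0977 over 15 alternatives). That of Lama5 ended without control replicate 2 or 3 and with no filter (limma adjusted p 0.00930 to 0.0734 over 14 alternatives).

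The remaining laminin chains described here did not pass the threshold or were below the filter. Lama4, a vascular alpha chain, stood at 1.72, 3.19 and 2.34 FPKM in dKO oocytes and at 4.53, 4.41 and 4.32 FPKM in control oocytes. All dKO libraries were lower, but its limma adjusted p was 0.0534 (log2 change -0.69), and 0.0165 to 0.0398 under median-ratio scaling, quantile normalization, without the variance trend or without dKO replicate 2. Lama1, the alpha chain of embryonic basement membranes, stood at 1.14, 1.79 and 1.85 FPKM in dKO oocytes and at 0.763, 0.856 and 0.874 FPKM in control oocytes. It was higher in each dKO library than in any control (log2 change 0.49; limma adjusted p = 0.0896), and past the threshold only without dKO replicate 1 (0.0397). Lamb1 was the most abundant of all 82 genes, with 149, 191 and 191 FPKM in dKO oocytes and 154, 177 and 161 FPKM in control oocytes. It carried 77.7% of laminin FPKM in dKO oocytes and 75.9% in control oocytes, and its groups overlapped (log2 change 0.10, 95% interval -0.27 to 0.47). Among chains below the filter, Lama3 stood at up to 0.469 FPKM in dKO oocytes and 0.384 FPKM in control oocytes. Lamb3 reached 0.0857 FPKM in dKO oocytes and was listed at 0 in the controls.

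Ratios were taken between chains of the same assembly, and between the alternative alpha chains Lama1 and Lama2. They were chosen after their values were seen, are given without a test, and set the chains beside each other within a library. Lamc1 RNA was 0.151, 0.150 and 0.136 times Lamb1 RNA in dKO oocytes and 0.0729, 0.0709 and 0.0736 times in control oocytes. Lama2 RNA was 0.314, 0.348 and 0.529 times Lamc1 RNA in dKO oocytes and 1.93, 1.42 and 1.69 times in control oocytes, so the more abundant of the pair was Lamc1 in dKO oocytes and Lama2 in controls. Lama1 RNA was 0.162, 0.179 and 0.135 times Lama2 RNA in dKO oocytes and 0.0351, 0.0482 and 0.0436 times in control oocytes. The ratios of Itga6 and Itga9 to Itgb1 overlapped between groups. Itga6 stood at 3.38, 4.58 and 3.26 times Itgb1 in dKO oocytes and at 4.30, 3.67 and 4.66 times in control oocytes. For Itga5 the ratio to Itgb1 was 0.215, 0.482 and 0.855 in dKO oocytes and 0.0110, 0.0178 and 0.0457 in control oocytes.

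**Figure D3:**
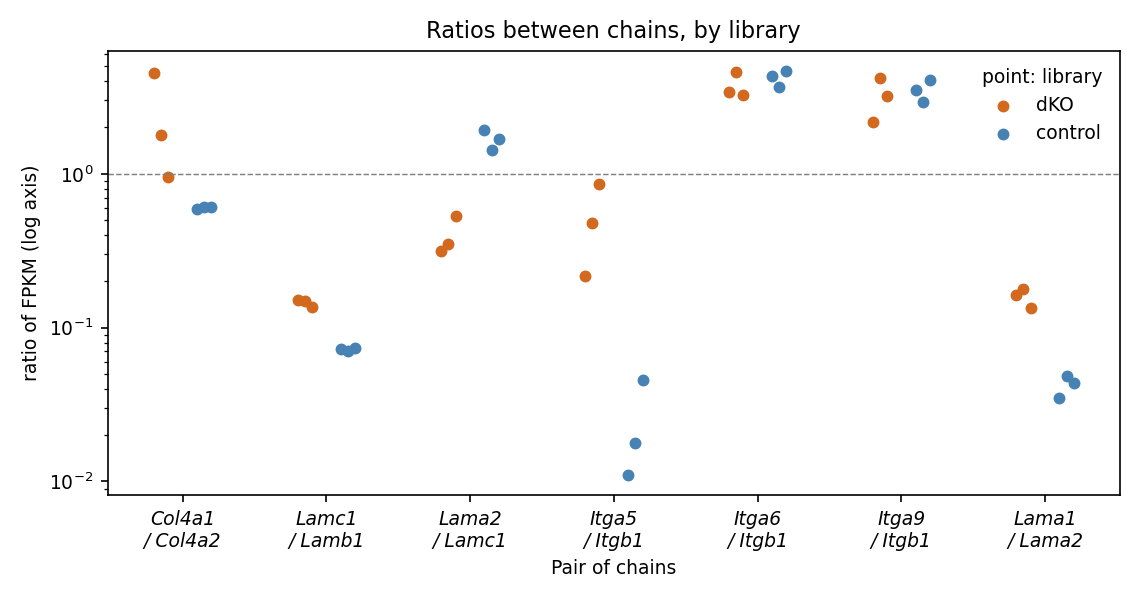
Ratio of FPKM between pairs of chains on a log axis, dKO libraries left of control libraries for each pair; each point is a library and the dashed line marks equal levels. The groups overlap for Itga6 and Itga9 over Itgb1 and are apart for the other pairs.

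Collagens were low as a family, at 40.6, 39.3 and 46.8 FPKM in all in dKO oocytes and 60.2, 56.5 and 45.6 FPKM in control oocytes. Of the 44 chains 9 were tested, of which 1 rose and 2 fell, with a median log2 change of -0.19. The largest part was collagen VI, a beaded filament of connective tissue, through its alternative chains. Col6a6 alone made up 20.5% of collagen FPKM in dKO oocytes and 43.0% in control oocytes. It stood at 4.67, 8.06 and 13.2 FPKM in dKO oocytes and at 25.4, 24.8 and 19.6 FPKM in control oocytes. All dKO libraries were lower, with a change of -1.42 ± 0.31 in log2 (SE; limma adjusted p = 0.0120). Its call ended without control replicate 1 (limma adjusted p = 0.0518, over 15 alternatives from 0.00215 to 0.0518). In the reference annotation its exons overlap the predicted gene Gm38314 on the other strand.

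Col6a5, which neighbours Col6a6 on chromosome 9 on the same strand, also fell. It stood at 2.62, 3.21 and 3.08 FPKM in dKO oocytes and at 7.5, 6.32 and 5.03 FPKM in control oocytes, with no overlap (log2 change -0.86 ± 0.21, SE; limma adjusted p = 0.0195). Its call ended without control replicate 1 or 2 (limma adjusted p 0.00835 to 0.0998 over 15 alternatives). Col6a4, next in the same row of genes, had 1.67, 2.45 and 2.67 FPKM in dKO oocytes and 3.73, 3.18 and 2.13 FPKM in control oocytes. Its groups overlapped (log2 change -0.29, 95% interval -0.82 to 0.24). These 3 genes are paralogs, and reads of similar copies may be split between them. Col6a3, the main form of the same chain elsewhere, averaged 3.04 ± 1.10 FPKM in dKO oocytes and 3.51 ± 0.380 FPKM in control oocytes (SD, n = 3 each). The chains that all collagen VI needs were nearly silent, Col6a1 at up to 0.0516 FPKM in dKO oocytes and 0.0472 FPKM in control oocytes, and Col6a2 listed at 0 in dKO oocytes and at up to 0.0182 FPKM in control oocytes.

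Collagen IV forms the network of basement membranes, and of its main chains Col4a1 rose while Col4a2 did not pass the threshold, a difference that was not tested. Col4a1 stood at 2.88, 2.07 and 1.91 FPKM in dKO oocytes and at 1.06, 1.15 and 1.05 FPKM in control oocytes. It was higher in each dKO library (log2 change 0.64 ± 0.19, SE; limma adjusted p = 0.0402). Its call was the least stable of the 11: it ended in 7 of 14 alternatives, among them the replicate block (limma adjusted p = 0.0550), any 1 control left out and quantile normalization (0.311), with a range from 0.0279 to 0.311. Col4a2 lies head to head with Col4a1 on chromosome 8 and had 0.633, 1.16 and 2 FPKM in dKO oocytes and 1.80, 1.91 and 1.74 FPKM in control oocytes. In the dKO group replicate 1 was low and replicate 3 was above the controls (log2 change -0.36, 95% interval -0.90 to 0.18). The ratio of Col4a1 to Col4a2 was 4.54, 1.80 and 0.954 in dKO oocytes and 0.588, 0.606 and 0.604 in control oocytes, steady in controls and spread widely in dKO oocytes. Exons of the 2 genes overlap in the annotation and the use of strand is not stated, so reads at their shared start cannot be assigned. Col4a3, a chain of kidney and eye basement membranes, averaged 6.00 ± 0.624 FPKM in dKO oocytes and 4.22 ± 0.799 FPKM in control oocytes (SD, n = 3 each; limma adjusted p = 0.173). Its partner Col4a4, which neighbours it head to head, reached only 0.0368 FPKM in dKO oocytes and 0.0169 FPKM in control oocytes.

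The collagens of stromal fibres were close to 0. Col1a1, Col1a2 and Col3a1, the chains of skin, bone and ovarian stroma, peaked at 0.152, 0 and 0.0522 FPKM in dKO oocytes and at 0.00716, 0.00721 and 0 FPKM in control oocytes. None of the 11 fibrillar collagens passed the filter, and their summed level was 2.11, 1.33 and 1.68 FPKM in dKO oocytes and 0.787, 0.594 and 0.754 FPKM in control oocytes. Col27a1, a cartilage fibre chain, was the fibrillar chain that reached 1 FPKM, at 1.13, 0.462 and 0.535 FPKM in dKO oocytes and 0, 0.0383 and 0.0127 FPKM in control oocytes. Of the other classes, Col9a3, a fibril-associated chain of cartilage, averaged 5.71 ± 1.91 FPKM in dKO oocytes and 5.33 ± 0.871 FPKM in control oocytes (SD, n = 3 each). Col25a1, a transmembrane chain of neurons, averaged 3.06 ± 0.479 FPKM in dKO oocytes and 2.24 ± 0.611 FPKM in control oocytes (limma adjusted p = 0.300, n = 3 each). Col19a1, another fibril-associated chain, was below the filter with 1.70, 0.665 and 0.721 FPKM in dKO oocytes and 0.221, 0.279 and 0.201 FPKM in control oocytes.

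**Figure D4:**
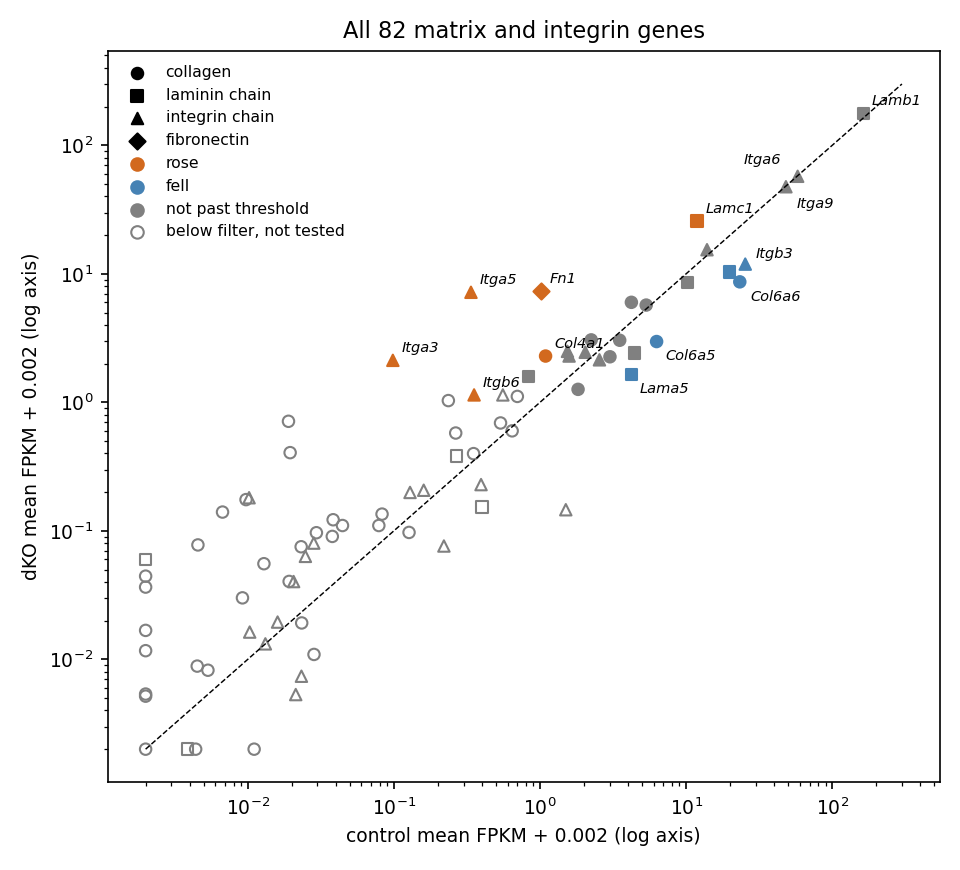
Mean FPKM of all 82 genes, dKO on the vertical and control on the horizontal log axis, each with 0.002 FPKM added so that genes listed at 0 can be drawn; shape gives the family and colour the call. Lamb1, Itga6 and Itga9 lie close to the dashed line of equal levels, the unlabelled blue square left of Itgb3 is Lama2, and most open points, which are genes below the filter, lie under 1 FPKM on both axes.

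Among the 54 members below the filter, 12 were higher in every dKO library than in any control and 3 were lower. Of all genes below the filter and above 0 somewhere, 22.3% and 4.09% were apart in these directions, against 22.6% and 5.66% of the 53 members above 0, so the members' shares were near the background. With no filter on low values, 9 of 81 members rose and 4 fell, where 9.88% of all 20310 genes rose and 2.68% fell. Those that gained a call this way, named after their values were seen except Col27a1 and Itgb4, were Col27a1, Col1a1, Col17a1 and Itgb8, which rose, and Itgb4 and Lamb2, which fell. Itgb4, the partner of Itga6 in epithelial hemidesmosomes, stood at 0.120, 0.0757 and 0.235 FPKM in dKO oocytes and at 2.08, 1.71 and 0.717 FPKM in control oocytes. The dKO mean was 9.56% of the control mean (log2 change -1.09; limma adjusted p = 0.0353 with no filter). Its exons overlap B230344G16Rik on the other strand. Lamb2, the beta chain of mature neuromuscular and kidney laminins, stood at 0.215, 0.133 and 0.104 FPKM in dKO oocytes and at 0.344, 0.401 and 0.454 FPKM in control oocytes (limma adjusted p = 0.0321 with no filter). Col17a1, a hemidesmosome collagen, stood at 0.345, 0.589 and 0.278 FPKM in dKO oocytes and at 0.0123, 0.0341 and 0.00603 FPKM in control oocytes. Itgb8, an alpha V partner, reached 0.252 FPKM in dKO oocytes and 0.0246 FPKM in control oocytes. The other members below the filter that reached 1 FPKM in a library, Col13a1, Col19a1, Col28a1 and Itgb2, got no call with no filter.

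Within the dKO group, replicate 1 was the lowest library at all 5 members that fell, and replicate 3 the highest at 4 of the 5. The same order was not counted over all genes that fell, so it cannot be read as a trait of the members. Relative depth was lowest in replicate 1, and Rnf2 was highest there and lowest in replicate 3. The part of these differences in the results was not tested. Among the 6 members that rose, replicates 1 and 3 were each the lowest at 3.

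Promoter windows were looked up in a RefSeq table of build GRCm38.p6, in which each window runs from 250 bases before an annotated start site to 50 after it. Windows were found for 58 of the 82 genes, 4 of them genes that rose and 4 that fell. The 4 windows of genes that fell held 1 to 24 CG dinucleotides (Lama2 1, Col6a5 10, Col6a6 14, Lama5 24). The 6 windows of genes that rose held 3 to 37 (the 2 windows of Itgb6 12 and 3, those of Itga3 24 and 5, Itga5 13 and Col4a1 37). The median over the 10912 windows of tested genes was 20, and the CG counts of the rising and falling genes overlapped. The motif GGGCGG, the GC box, searched on both strands and itself holding a CG, was in 4 of 6 windows of genes that rose, 4 of 4 windows of genes that fell and 60.9% of windows of tested genes. The motif TATAAA, searched on both strands, was in none of these 10 windows and in 7.46% of windows of tested genes. The windows of Col4a1 and Col4a2 share 78 bases. Whether oocyte transcripts start at these sites was not measured.

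The windows below differ in CG content. They do not span the range of the genes that rose, of which only Itga5 is printed. They are the 150 bases before the start site of Itga5, which rose, and of Col6a5, Lama2 and Lama5, which fell, each free of annotated exons. Letters are in the direction of the gene, which is the minus strand in all 4, and capitals mark CG dinucleotides. They lie at chr15:103366792-103366941 (Itga5), chr9:105960644-105960793 (Col6a5), chr10:27616943-27617092 (Lama2) and chr2:180225860-180226009 (Lama5), and hold 8, 5, 0 and 12 CG dinucleotides in that order.
Itga5: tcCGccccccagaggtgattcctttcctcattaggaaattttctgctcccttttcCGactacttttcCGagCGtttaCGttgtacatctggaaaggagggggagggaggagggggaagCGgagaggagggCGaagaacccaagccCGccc
Col6a5: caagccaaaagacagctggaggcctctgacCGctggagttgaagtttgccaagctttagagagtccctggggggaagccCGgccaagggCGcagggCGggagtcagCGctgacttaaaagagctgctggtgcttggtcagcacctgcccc
Lama2: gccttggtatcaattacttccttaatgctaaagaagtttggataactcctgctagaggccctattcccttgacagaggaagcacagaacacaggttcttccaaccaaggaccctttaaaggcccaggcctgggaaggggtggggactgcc
Lama5: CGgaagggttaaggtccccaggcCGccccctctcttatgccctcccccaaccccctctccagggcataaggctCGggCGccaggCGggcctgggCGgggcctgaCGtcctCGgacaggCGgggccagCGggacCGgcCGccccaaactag

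Matrix proteins that bind these members were read in the same way. Of 30 matrix partners, 9 passed the filter, and 5 rose and 0 fell by limma, where 14.0% of all tested genes rose and 7.04% fell. All 5 that rose, Tnc, Fbln5, Npnt, Mfge8 and Tnr, passed the filter only with their dKO libraries, so neither this count nor the median log2 change of 0.69 (-0.019 over all tested genes) supports a direction of the list. Tnc, the tenascin that Itga9 binds, stood at 4.16, 5.12 and 4.61 FPKM in dKO oocytes and at 0.0793, 0.356 and 0.864 FPKM in control oocytes (log2 change 2.01; limma adjusted p = 0.000459). Fbln5, an elastic fibre protein, averaged 4.36 ± 1.97 FPKM in dKO oocytes and 0.304 ± 0.0345 FPKM in control oocytes (SD, n = 3 each; log2 change 1.97). Npnt, the nephronectin ligand of Itga8, averaged 4.22 ± 2.70 FPKM in dKO oocytes and 0.364 ± 0.217 FPKM in control oocytes (SD, n = 3 each; log2 change 1.83). The highest control value of these 3 genes was 0.864 FPKM, of Tnc. With limma and no filter 10 of 30 rose and 0 fell, where 9.88% of all genes rose and 2.68% fell, and 0 tested partners were lower at an unadjusted p under 0.05.

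Other receptors for matrix and the adhesion machinery inside the cell were counted against the same shares. Of 10 other matrix receptors, 6 passed the filter, and by limma 2 rose and 0 fell (median log2 change 0.26), with 0 lower at an unadjusted p under 0.05. The rises are 33.3% of the tested receptors, where 14.0% of all tested genes rose and 7.04% fell. Of the 2 that rose, Sdc4 passed the filter only with its dKO libraries. Sdc4, a heparan sulfate proteoglycan that acts with Itga5 at adhesions, stood at 10.7, 10.4 and 3.41 FPKM in dKO oocytes and at 0.542, 0.268 and 0.322 FPKM in control oocytes (log2 change 2.61; limma adjusted p = 0.00117). Sdc2 averaged 6.70 ± 2.43 FPKM in dKO oocytes and 2.38 ± 0.655 FPKM in control oocytes (SD, n = 3 each; log2 change 1.15). Of 32 adhesion genes, 23 passed the filter, and 4 rose and 1 fell (median log2 change 0.07). These are 17.4% and 4.35% of the tested genes of the list, near the 14.0% and 7.04% of all tested genes. Of the 4 that rose, Parvb and Vasp passed the filter only with their dKO libraries. Cd81, an egg membrane tetraspanin, stood at 24.2, 26.1 and 18.2 FPKM in dKO oocytes and at 2.77, 1.60 and 1.15 FPKM in control oocytes, far apart (log2 change 3.09; limma adjusted p = 7.3e-05). Cd151, the tetraspanin partner of laminin-binding integrins, stood at 9.14, 17.1 and 12.8 FPKM in dKO oocytes and at 29.2, 27.3 and 24.9 FPKM in control oocytes (log2 change -1.04; limma adjusted p = 0.0110). Parvb and Zyx, adaptors at integrin adhesions, had log2 changes of 1.76 and 1.57. Cd81, Cd151, Zyx and Tnc overlap exons of other genes on the other strand.

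Markers of the cells around the oocyte were measured beside these results, since granulosa cells and stroma make matrix proteins. Of 18 granulosa and cumulus markers, 8 passed the filter, and by limma 5 rose and 0 fell, with 1 lower at an unadjusted p under 0.05. The rises are 62.5% of the tested markers of the list, where 14.0% of all tested genes rose and 7.04% fell. Of the 5 that rose, 4 passed the filter only with their dKO libraries. The summed level of all 18 markers was 63.3 to 68.3 FPKM in dKO oocytes and 27.1 to 33.8 FPKM in control oocytes. Fshr averaged 10.6 ± 1.23 FPKM in dKO oocytes and 0.158 ± 0.0183 FPKM in control oocytes, and Ptgs2 averaged 15.9 ± 1.99 FPKM in dKO oocytes and 0.597 ± 0.115 FPKM in control oocytes (SD, n = 3 each). Nr5a2, the most abundant of the list, rose less, from 16.5 ± 2.02 FPKM in control oocytes to 25.5 ± 1.61 FPKM in dKO oocytes. Wt1 and Has2 also rose. Cyp19a1 was lower in every dKO library, at 5.78 ± 0.498 FPKM against 9.94 ± 2.04 FPKM in control oocytes, but did not pass the threshold (log2 change -0.67). Foxl2, a defining granulosa factor, stood at 0.0769 to 0.586 FPKM in dKO oocytes and at up to 0.0972 FPKM in control oocytes. Amhr2 stayed at or below 0.0558 FPKM in dKO oocytes and 0.0817 FPKM in control oocytes, Ptx3 was listed at 0 in all libraries and Tnfaip6 did not exceed 0.00637 FPKM. Of 11 theca and stroma markers, 2 passed the filter and Nr2f2 rose, and the sums were 20.2 to 31.7 FPKM in dKO oocytes and 23.6 to 26.7 FPKM in control oocytes. Nr2f2 passed the filter only with its dKO libraries. Myh11 made up most of both sums, at 15.9 ± 7.83 FPKM in dKO oocytes and 23.8 ± 1.70 FPKM in control oocytes (SD, n = 3 each). Of the 11 stromal markers 5, the tested Nr2f2 among them, were higher in every dKO library than in any control and 0 were lower. Of all genes below the filter and above 0 somewhere, 22.3% and 4.09% were apart in these directions. These shares leave out tested genes such as Nr2f2 and Myh11, so they are not fully like the count of 5. With no filter 4 of the 11 rose, or 36.4%, and 0 fell, where 9.88% of all genes rose and 2.68% fell. The 4 were Nr2f2, Pdgfra (mean 0.578 FPKM in dKO and 0.0758 FPKM in control oocytes), Dcn (1.41 FPKM in dKO and 0.207 FPKM in control oocytes) and Lum (0.333 FPKM in dKO oocytes, listed at 0 in controls). Dcn and Lum are also among the matrix partners. Of 8 endothelial markers, 2 passed the filter and Pecam1, which carried most of both sums, fell, while 5 others (Kdr, Tek, Cldn5, Vwf and Tie1) were higher in every dKO library than in any control without a call. All of these but Tek were below the filter, where 22.3% of all genes above 0 somewhere were higher in this way. Kdr averaged 1.46 FPKM in dKO oocytes and 0.424 FPKM in control oocytes. The endothelial sums were 20.5 to 29.4 FPKM in dKO oocytes and 24.8 to 33.9 FPKM in control oocytes, with Emcn listed at 0 in all libraries. Of 11 leukocyte and platelet markers, 2 passed the filter, and by limma 0 were called, with 0 below an unadjusted p of 0.05. Their sums were 4.54 to 7.99 FPKM in dKO oocytes and 3.68 to 6.54 FPKM in control oocytes, with Tyrobp, Pf4 and Gp9 listed at 0 in all libraries. All 12 oocyte markers were tested with a median log2 change of -0.61, and 4 of them fell. The falls are 33.3% of the list, where 7.04% of all tested genes fell and 11.0% of those at a mean of 30 FPKM and over. At an unadjusted p under 0.05, 10 were lower and 0 higher by limma. No share over all genes was counted at an unadjusted p, for this or the other lists. The sums of the oocyte markers were 5290 to 7620 FPKM in dKO oocytes and 9290 to 9720 FPKM in control oocytes. The part of oocyte RNA content in the falls and of granulosa, stromal or endothelial RNA in the rises of members was not tested.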

How the data were processed

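Per the labels' protocols, pipetting removed the granulosa cells, and the NuGEN Ovation kit amplified the RNA for sequencing on a HiSeq. The authors deposited FPKM, with 1 column per library. The submitters' processing notes name TopHat2 2.0.11, Cufflinks 2.0.2 and mm9, while the sources used here do not give the annotation, strand use or scaling. Of 24525 rows, 497 exact repeats were removed. Genes that reached 1 FPKM in 3 or more libraries entered limma 3.58.1 in R 4.3.3 (log2(FPKM + 1), trend, two-sided, Benjamini-Hochberg adjusted over all tested genes, threshold 0.05). The fit was checked on simulated data in which only genes of higher level were changed and both groups had the same spread. That check does not cover low genes or the wider spread of the dKO libraries. All members are named by rule when past the threshold, highest in their class or at 1 FPKM in any library. Genes of the other matrix and adhesion lists are named mainly by the largest changes. Markers were to be named when highest in mean or past the threshold, but only some of these, and some others, are named. Members and lists were chosen with earlier results of these data known. Per the labels, same-numbered libraries shared a flow-cell lane, and their deviations correlated at 0.147, 0.107 and 0.0637. Between dKO and control libraries of different lanes the correlations were lower, at -0.11 to 0.0179. The main fit has no lane term, and the replicate block is given as an alternative. Each library index went with 1 group, which leaves index and genotype confounded. Ring1, deleted in both groups, stood at 0.121 ± 0.113 FPKM in dKO oocytes and 0.0498 ± 0.0420 FPKM in control oocytes (SD, n = 3 each). Exon overlaps were read from GENCODE M21 and promoters from RefSeq, both of GRCm38, and no coordinate was taken to mm9. Of the 82 members 26 overlap exons of another gene, 4 of them among the 11 called. The result of 1 tested member is not reported here. The alternatives were other pseudocounts, filters, scalings, variance models, the replicate block and the removal of each library.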

Additional observations from a re-analysis of the deposited data

How the results depend on the processing

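Fn1, Lamc1, Itga5 and Itga3 kept their direction and their call under every alternative that tested them (14 or 15 each). The other 7 called members lost the call under 1 to 7 alternatives, with their direction kept. Of the 28 tested members 6 rose and 5 fell, and with a filter of 5 FPKM in 3 or more libraries 2 rose of 13 tested, since Itga3, Itga5, Itgb6 and Col4a1 were then not tested. That filter left 1214 calls among all genes in place of 2385, and 3 in place of 12 among the other matrix and adhesion genes. On removal of 1 library each, members that fell numbered 1 to 6, with 1 or 2 on removal of a control, members that rose 4 to 6, and calls among all genes 1332 to 3031. For the other matrix and adhesion genes the range was 9 to 13. Rises made up 66.5% of all calls, but 52.6% after quantile normalization (4 members rose, 6 fell), 51.7% without dKO replicate 2 and 80.6% to 82.7% without 1 control. With the replicate block, 5 members rose and 5 fell, and Col4a1 was the only member whose call changed. Among the 17 tested members not past the threshold, Lama4 and Lama1 passed it in 5 of 245 fits, and the sign of 7 turned in 15 fits, none past the threshold. These were Col6a3 without dKO replicate 1 (0.06, range over single removals -0.33 to 0.06), Itgb5 (-0.13), Itga6 (0.10), Col9a3 (-0.10), Itga10 (0.00) and Itga9 (0.08) after quantile normalization, and Itga6 (0.02) and Itga9 (0.05) with array weights. They were also Itga6 (0.19) and Itga9 (0.08) without dKO replicate 3, Col9a3 (-0.17), Itgb1 (-0.05) and Itga9 (0.02) without dKO replicate 1, and Col9a3 (-0.06) and Itga9 (0.00) without control replicate 3. Over single removals the log2 changes spanned -0.19 to 0.19 for Itga6, -0.17 to 0.18 for Col9a3, -0.05 to 0.27 for Itgb1 and -0.24 to 0.08 for Itga9. The cause was not tested. Absolute depth is unknown, so no counting error could be given for members below the filter.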
